A study of Rattus norvegicus with 18 samples.

Results

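The genes described here encode the nuclear-encoded subunits of the mitochondrial respiratory chain and of ATP synthase, and they were followed in a rat liver epithelial cell line exposed to a dioxin-like chemical. Members were the genes whose symbol in the array annotation had the form of a subunit name of complex I (Nduf genes), complex II (Sdh genes), complex III (Uqcr genes), complex IV (Cox genes) or complex V (Atp5 genes). The rule used names alone and no measured value. It found 76 of the 16988 genes measured, namely 34 of complex I, 4 of complex II, 6 of complex III, 16 of complex IV and 16 of complex V.

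WB-F344 is a stem-like epithelial line from rat liver, and 1 line was studied. Confluent cultures of passages 14 to 16 were exposed to 100 nM PCB126 in some dishes and to 0.1% DMSO, the vehicle and control, in others, for 6, 24 or 72 h. PCB126 is a coplanar polychlorinated biphenyl that activates the aryl hydrocarbon receptor, and the series compares it with the vehicle at each time. There were 6 groups of 3 independent repeats and 1 exon array per repeat, so 18 arrays in all. Separate passages or thaws are not named for the repeats in the labels, so the p-values reflect only how these samples scatter, which may be technical.

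The respiratory chain passes electrons from NADH (through complex I) and succinate (through complex II) to ubiquinone, from there through complex III and cytochrome c to complex IV, and finally to oxygen. Complexes I, III and IV pump protons across the inner mitochondrial membrane, and complex V, the ATP synthase, lets them flow back through a ring of c subunits and makes ATP. Most subunits are encoded in the nucleus and imported, and a few catalytic ones are encoded in mitochondrial DNA. The subunits of mitochondrial origin were not analysed here.

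The data were log2 expression values per probe set, and the value of a gene on an array was the median over its probe sets. The 76 members rested on 532 probe sets, between 1 and 27 per gene with a median of 6, and 503 of them lay above 4.03, the median level of all probe sets. The means of 74 members over the 18 arrays lay above that level and those of 59 above 8. Members of low level were the testis and muscle forms Cox8c (4.32) and Cox8b (3.15), the lung and hypoxia form Cox4i2 (4.24) and Cox6c1 (3.36), which current annotation lists as the pseudogene Cox6c-ps1. Atp5s, a name that matched the rule, is now Dmac2l, which is no subunit of the ATP synthase, and Ndufa4, counted here with complex I by its name, is known as a component associated with complex IV.

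The difference between replicate arrays of a group had an SD over all genes between 0.352 and 0.518 (log2). Cyp1a1, the classical target of the receptor, lay between 6.62 and 7.48 with PCB126 at 6 h, against 3.83 to 4.23 in DMSO. It lay between 9.92 and 10.82 with PCB126 at 72 h, against 3.89 to 4.36 in DMSO, so every array matched its treatment label. Marker genes of 5 cell types were set against a level 1 above the median probe set level. Of 7 epithelial and duct markers, Krt8 (7.45 to 8.99), Krt7 and Sox9 were above it on 18 of 18 arrays and Krt19 on 17, while Krt18, Cdh1 (4.31 to 5.08) and Epcam (1.68 to 2.96, listed as Tacstd1) were above it on 1, 3 and 0. Of 6 hepatocyte markers, Cyp2e1 (8.06 to 11.17) was above it on 18 arrays and Hnf4a on 14, while Ttr was on 1 and Alb (2.98 to 4.26), Serpina1 and Tat on 0. Of 6 mesenchymal markers, Vim (11.83 to 13.27), Col1a1, Col1a2 and Pdgfrb were above it on 18 arrays, Thy1 (3.75 to 5.50) on 5 and Pdgfra (3.92 to 4.79) on 0. Of 6 blood and endothelial markers 0 were above it on all arrays, with Pecam1 (4.53 to 5.57) on 7, Cd68 on 2, and Ptprc, Hbb, Itgam and Cdh5 on 0. Some markers moved with the treatment: at 72 h Cyp2e1 fell by 2.67 on the log2 scale (limma adjusted p = 1.57e-07), Krt19 by 1.37 (adjusted p = 0.000217) and Sox9 by 0.85 (adjusted p = 0.0024), and Krt8 and Vim rose by 1.08 and 1.15 (adjusted p = 0.00311 and 7.96e-06). Vim was the only 1 of the 6 mesenchymal markers called at 72 h, and the median difference of the 6 was -0.28, so of opposite sign. Cyp2e1 was the only 1 of the 6 hepatocyte markers called at 72 h, with a median difference of -0.03 over the 6. At 24 h Cyp2e1 fell by 1.23, Krt19 by 0.95 and Krt18 by 0.69, Vim rose by 0.67, and at 6 h Krt19 fell by 1.01 (limma adjusted p between 0.000861 and 0.0267). The calls of Krt18 at 24 h and Krt19 at 6 h were lost whichever array was left out (adjusted p 0.0575 to 0.159), and that of Krt19 at 24 h without DMSO replicate 1 (adjusted p = 0.0511). The part of these marker changes in the results on respiratory chain genes was not tested. In bulk RNA of this kind, a change in the number of cells of a type and a change in RNA per cell cannot be told apart.

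PCB126 changed 1 respiratory chain gene of 76 by the test used. Atp5g1 (current symbol Atp5mc1), one of the 3 genes that encode the same membrane-embedded c subunit of the ATP synthase rotor, was higher with PCB126 at 72 h. The other 75 members did not pass at any of the 3 times. Differences were tested with limma on all 16988 genes together, with Benjamini-Hochberg adjustment, and called at an adjusted p under 0.05. At 6 h 0 of 76 members were called, against 0.494% of all genes, and 4 had an unadjusted p under 0.05 (3 higher, against 3.24% of all genes, and 1 lower, against 5.07%). At 24 h 0 of 76 were called, against 4.84% of all genes, and 2 had an unadjusted p under 0.05 (1 higher, against 6.06% of all genes, and 1 lower, against 9.31%). At 72 h 1 was called, against 7.44% of all genes in either direction and 3.3% on the higher side, and 3 had an unadjusted p under 0.05 (3 higher, against 8.76% of all genes, and 0 lower, against 9.8%).

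The 3 genes of the c subunit are shown first because they encode the same mature protein and yet gave different values. Their promoters, from RefSeq in the GRCr8 build and each covering 250 bases before to 50 bases after the annotated gene start, are printed 5′ to 3′ on the strand of the gene, which is the minus strand for each. Capitals mark the matches to 3 motifs on either strand: CCAAT (the CCAAT box), CACGTG (an E-box) and the 10-letter palindrome of NRF1, a regulator of many respiratory genes, which is the run in capitals in Atp5g2. In the promoter of Atp5g1 at chr10:81523296-81523595, an overlapping pair of CCAAT matches, 1 on each strand, makes up the run CCAATTGG.
Atp5g1: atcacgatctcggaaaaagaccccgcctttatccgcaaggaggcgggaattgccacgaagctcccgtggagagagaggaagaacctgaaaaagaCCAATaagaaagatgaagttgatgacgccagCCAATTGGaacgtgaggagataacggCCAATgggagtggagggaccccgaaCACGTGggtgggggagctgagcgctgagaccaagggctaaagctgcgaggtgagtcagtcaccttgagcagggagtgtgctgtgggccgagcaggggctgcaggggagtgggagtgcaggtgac
Atp5g2: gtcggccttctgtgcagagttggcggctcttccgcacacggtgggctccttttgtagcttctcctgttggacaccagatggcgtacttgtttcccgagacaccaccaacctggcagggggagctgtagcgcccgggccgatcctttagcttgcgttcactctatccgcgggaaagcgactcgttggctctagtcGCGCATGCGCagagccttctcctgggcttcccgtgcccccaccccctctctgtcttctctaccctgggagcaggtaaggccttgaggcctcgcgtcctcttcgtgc
Atp5g3: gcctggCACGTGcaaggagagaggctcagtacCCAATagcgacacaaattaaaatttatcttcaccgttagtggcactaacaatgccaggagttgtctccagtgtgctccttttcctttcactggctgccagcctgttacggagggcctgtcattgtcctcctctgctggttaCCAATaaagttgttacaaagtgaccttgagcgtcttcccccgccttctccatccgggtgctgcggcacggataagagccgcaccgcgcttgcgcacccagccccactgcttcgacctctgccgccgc
The sequence of Atp5g2 (Atp5mc2) is at chr7:135678169-135678468 and that of Atp5g3 (Atp5mc3) at chr3:79220615-79220914. Atp5g1 held 4 matches to CCAAT, counting both of the overlapping pair, and 1 to CACGTG. Atp5g2 held 1 match to the NRF1 palindrome, and Atp5g3 held 2 to CCAAT and 1 to CACGTG. The letters GCGTG, the core of the element bound by the aryl hydrocarbon receptor, had 0 matches on either strand in each of these 3 windows, which says only that these letters are not in them. The GC content was 57.7% for Atp5g1, 62% for Atp5g2 and 56% for Atp5g3.

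Atp5g1 had values of 9.03, 8.91 and 8.75 on the PCB126 arrays at 6 h, against 8.58, 8.43 and 8.50 in DMSO (log2, replicates 1 to 3). At 24 h it had 8.97, 8.98 and 9.06 with PCB126, against 8.72, 8.38 and 8.69 in DMSO. At 72 h it had 9.94, 9.65 and 9.19 with PCB126, against 8.67, 8.73 and 8.15 in DMSO. At each of the 3 times all PCB126 arrays were above all DMSO arrays, and the PCB126 array closest to DMSO at 72 h was replicate 3. The difference was 0.39 at 6 h (95% interval 0.01 to 0.78, limma adjusted p = 0.595), 0.41 at 24 h (0.02 to 0.79, adjusted p = 0.286) and 1.08 at 72 h (0.69 to 1.46, adjusted p = 0.00107), a 2.11-fold rise at 72 h. Within the PCB126 cultures it was higher at 72 h (9.60 ± 0.38) than at 6 h (8.90 ± 0.14), a difference of 0.70 (SD, n = 3 arrays each, limma adjusted p = 0.033). That call was lost without any 1 of 5 of the 6 arrays and in a fit with the compared groups alone (adjusted p up to 0.2), and held without PCB126 replicate 3 of 72 h (adjusted p = 0.00825). In DMSO it was 8.52 ± 0.32 at 72 h and 8.50 ± 0.07 at 6 h, a difference of 0.02 (adjusted p = 0.978). With the mean over its probe sets in place of their median, the difference between 72 and 6 h was 0.62 in PCB126 (adjusted p = 0.0104) and 0.42 in DMSO (adjusted p = 0.0849). Whether the effect of PCB126 differs between the times was tested with limma's F-test, which Atp5g1 did not pass (adjusted p = 0.466, with 0 of 76 members and 0.565% of all genes called), so a growth of its difference with time is not established.

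**Figure D1:**
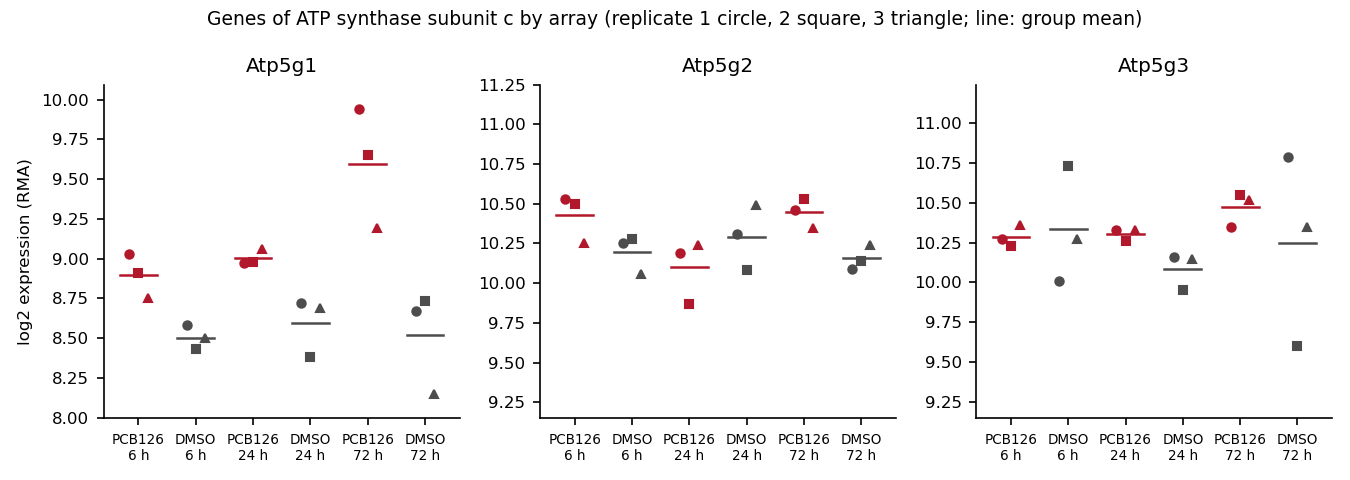
Log2 expression of the 3 genes of the ATP synthase c subunit (Atp5g1, Atp5g2 and Atp5g3) at 6, 24 and 72 h, with 1 point per array, PCB126 left of DMSO at each time, and bars for the group means. For Atp5g1 all PCB126 arrays are above all DMSO arrays at each of the 3 times, with the widest gap at 72 h, where the means are 9.60 and 8.52.

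The size of the 72 h difference of Atp5g1 depended on how its 5 probe sets were combined. The probe set with a mean level of 8.75 differed by 1.11 and the one at 8.79 by 0.91. The probe sets at 10.14 and 11.39 differed by 0.37 and 0.38, and the one at 6.99 by 0.09. All 5 differences pointed to higher values with PCB126 at 72 h, and in 3 of the 5 all PCB126 arrays were above all DMSO arrays. With the mean over probe sets in place of the median, the 72 h difference was 0.57 (limma adjusted p = 0.0151), still called. A fit with the 2 compared groups alone gave the same 1.08 without a call (adjusted p = 0.0656), while leaving out any 1 of the 6 arrays kept the call, with differences between 0.89 and 1.28. RefSeq lists a further c-subunit gene, Atp5mc1l2, and pseudogenes of this family are known, so probes may be shared and the value of Atp5g1 is uncertain in that respect.

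**Figure D2:**
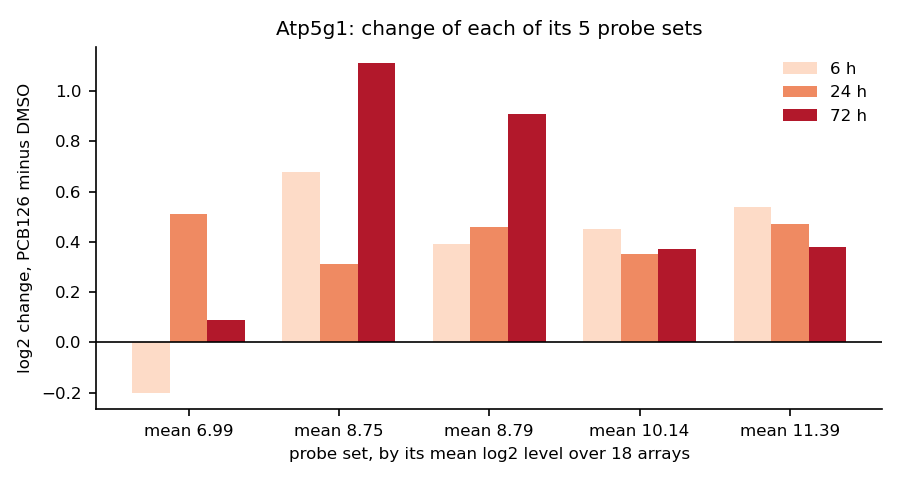
Log2 difference, PCB126 minus DMSO, of each of the 5 probe sets of Atp5g1 at 6, 24 and 72 h against the mean log2 level of the probe set over the 18 arrays. At 72 h the differences run between 0.09 and 1.11, with the highest at the probe sets with mean levels of 8.75 and 8.79.

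Its sister genes did not pass the test. Atp5g2 had 10.46, 10.53 and 10.35 with PCB126 at 72 h, against 10.09, 10.14 and 10.24 in DMSO. These values did not overlap, with a difference of 0.29 (95% interval 0.00 to 0.58, limma adjusted p = 0.272), but at 24 h the difference was of opposite sign (-0.19, interval -0.48 to 0.10). Atp5g3 had 10.35, 10.55 and 10.52 with PCB126 at 72 h, against 10.79, 9.60 and 10.35 in DMSO. The DMSO arrays of Atp5g3 lay on both sides of its PCB126 arrays, and its difference was 0.22 (interval -0.26 to 0.71).

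Elsewhere in complex V, differences were below 0.5 (log2) in size and none was called. Counting the c-subunit genes, 11, 7 and 14 of 16 were above 0 at 6, 24 and 72 h, against 48.8%, 46.5% and 50.3% of all genes. On PCB126 replicate 1 of 72 h, 16 of 16 lay above their own mean over the arrays, against 10 and 9 on replicates 2 and 3. The catalytic F1 subunits Atp5a1 (Atp5f1a) and Atp5b (Atp5f1b) differed by -0.05 and 0.06 at 72 h, and the central stalk subunit Atp5c1 (Atp5f1c) by 0.08. Atp5e (Atp5f1e), the small epsilon subunit of the stalk, had 9.42, 9.28 and 9.03 with PCB126 at 6 h, against 8.98, 8.86 and 8.61 in DMSO. At 72 h Atp5e had 9.62, 9.40 and 9.22 with PCB126, against 9.08, 9.07 and 8.87 in DMSO. The Atp5e groups were apart at both times, with differences of 0.43 (limma adjusted p = 0.676) and 0.41 (adjusted p = 0.391), but not at 24 h, where the difference was -0.04. The membrane subunit Atp5i (Atp5me) differed by 0.45 at 72 h and by -0.32 at 24 h, and in neither case passed the test. The lowest differences under the names of complex V, none of them called, were -0.11 for Atp5c1 at 6 h and, for Atp5s, -0.33 at 24 h and -0.25 at 72 h. The median difference of the 16 genes was 0.12 at 6 h, -0.04 at 24 h and 0.15 at 72 h.

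In complex I, the NADH dehydrogenase, 0 of 34 genes were called at any time. The core subunits that carry flavin and iron-sulphur clusters included Ndufv1, which binds the flavin and differed by 0.14 at 72 h, and Ndufs1, the large iron-sulphur subunit, which differed by 0.10. Among the accessory subunits Ndufa2 had 7.74, 7.48 and 7.59 with PCB126 at 6 h, against 7.27, 6.80 and 7.30 in DMSO. Its groups were apart at 6 h, with a difference of 0.48 (95% interval 0.01 to 0.95, limma adjusted p = 0.595), and the differences at 24 and 72 h were 0.47 and 0.36, so of 1 sign at the 3 times and below the threshold each time. The membrane arm subunits Ndufb5 and Ndufb9 differed by 0.44 and 0.45 at 72 h. Ndufb7 differed by -0.35 at 24 h (interval -0.77 to 0.07), and Ndufv3l (Ndufv3) differed by -0.30 at 72 h. The median difference of the 34 genes was 0.12, 0.09 and 0.10 at 6, 24 and 72 h.

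Ndufa10, another accessory subunit of complex I, had 8.74, 8.76 and 8.81 with PCB126 at 6 h, against 9.14, 9.26 and 9.07 in DMSO. Every PCB126 array was below every DMSO array, with a difference of -0.39 (95% interval -0.70 to -0.08) and a limma adjusted p of 0.435. The value rests on 2 probe sets. A further 14 probe sets of this gene also carry the symbol of its relative Ndufa10l1 and stayed out of the gene value, and their median differed by 0.08 at 6 h. The difference was -0.02 at 24 h and 0.00 at 72 h in the 2 probe sets.

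Complex II, the succinate dehydrogenase, oxidises succinate both in the chain and in the citric acid cycle. Its 4 genes, the fewest of any complex, had the narrowest range of differences of the 5 complexes at each time. At 6 h they lay between -0.10 and 0.10, at 24 h between -0.22 and 0.29, and at 72 h between -0.17 and 0.16. The flavoprotein Sdha had 10.14, 10.39 and 10.35 with PCB126 at 72 h, against 10.52, 10.45 and 10.41 in DMSO, so just apart, with a difference of -0.17 (95% interval -0.46 to 0.13). The iron-sulphur subunit Sdhb differed by 0.16 at 72 h, and the membrane anchors Sdhc and Sdhd by -0.07 and 0.00. The values at the upper end were 0.10 for Sdhc at 6 h and 0.29 for Sdhd at 24 h, and those at the lower end were -0.10 and -0.22 for Sdha.

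In complex III, the cytochrome bc1 complex, the core proteins Uqcrc1 and Uqcrc2 differed by 0.13 and 0.11 at 72 h, and Uqcrfs1, the Rieske iron-sulphur protein, by -0.15. At 6 h Uqcrfs1 had the highest difference of the complex, 0.25, and Uqcrc1 the lowest, -0.10. Uqcrq, a small subunit, differed by 0.35 at 24 h and 0.31 at 72 h, with overlapping groups. Uqcrb, the ubiquinone-binding protein, had 5.43, 4.66 and 4.84 with PCB126 at 24 h, against 5.62, 5.76 and 5.28 in DMSO. Its difference was -0.58 (95% interval -1.10 to -0.06, limma adjusted p = 0.257), with groups that overlapped by 1 PCB126 array. That value comes from 1 probe set with a mean level of 5.26. The other 9 probe sets of Uqcrb, shared with a pseudogene and of a mean level of 10.72, gave 0.28 at 24 h and 0.24 at 72 h, where the single probe set gave -0.47, so the probe sets of Uqcrb disagreed in sign.

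Complex IV, cytochrome c oxidase, is the complex whose subunits exist in tissue forms. Of the liver-type and ubiquitous forms, Cox7a2 had 11.30, 11.16 and 11.22 with PCB126 at 72 h, against 10.93, 10.04 and 10.98 in DMSO. The groups were apart, with a difference of 0.57 (95% interval 0.07 to 1.07) that did not pass (limma adjusted p = 0.187), and the DMSO array of replicate 2 lay well below the other DMSO arrays. At 24 h Cox7a2 differed by 0.37. Cox6a1 and Cox8a, the ubiquitous forms of their subunits, differed by 0.19 and 0.06 at 72 h, and Cox4i1, the standard form of the largest nuclear-encoded subunit, by 0.07. The heart and muscle form Cox6a2 had 6.04, 6.45 and 5.67 with PCB126 at 72 h, against 5.78, 5.30 and 5.94 in DMSO, a difference of 0.38 with overlapping groups, and at 6 h it differed by -0.14. Cox6b2, a form known from testis, had 5.35, 4.95 and 4.61 with PCB126 at 24 h, against 5.53, 5.29 and 5.39 in DMSO. Its difference of -0.43 (95% interval -1.01 to 0.15, limma adjusted p = 0.517) was the lowest of complex IV at that time, with overlapping groups, and that of Cox8b, -0.28, was the lowest at 72 h. No value for the muscle form Cox7a1 was used here. Beside these muscle forms, of 6 muscle markers Ckm (5.12 to 6.12) was more than 1 above the median probe set level on 18 arrays and Tnnt3 on 17, while Ttn (3.59 to 4.01), Myh4, Actn2 and Myl1 were on 0.

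The largest difference of any member at 6 h was in complex IV. Cox8c, a form known from testis, had 4.55, 4.66 and 4.87 with PCB126 at 6 h, against 4.09, 3.65 and 3.86 in DMSO. These groups were apart, with a difference of 0.83 (95% interval 0.26 to 1.40) and a limma adjusted p of 0.318. At 24 h the difference was -0.08 and at 72 h 0.10, and the mean level of Cox8c over all arrays, 4.32, was close to the median probe set level. Cox4i2, the form that replaces Cox4i1 in lung and under low oxygen, differed by -0.02, -0.30 and 0.20 at 6, 24 and 72 h, with intervals that together ran between -1.11 and 1.01.

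**Figure D3:**
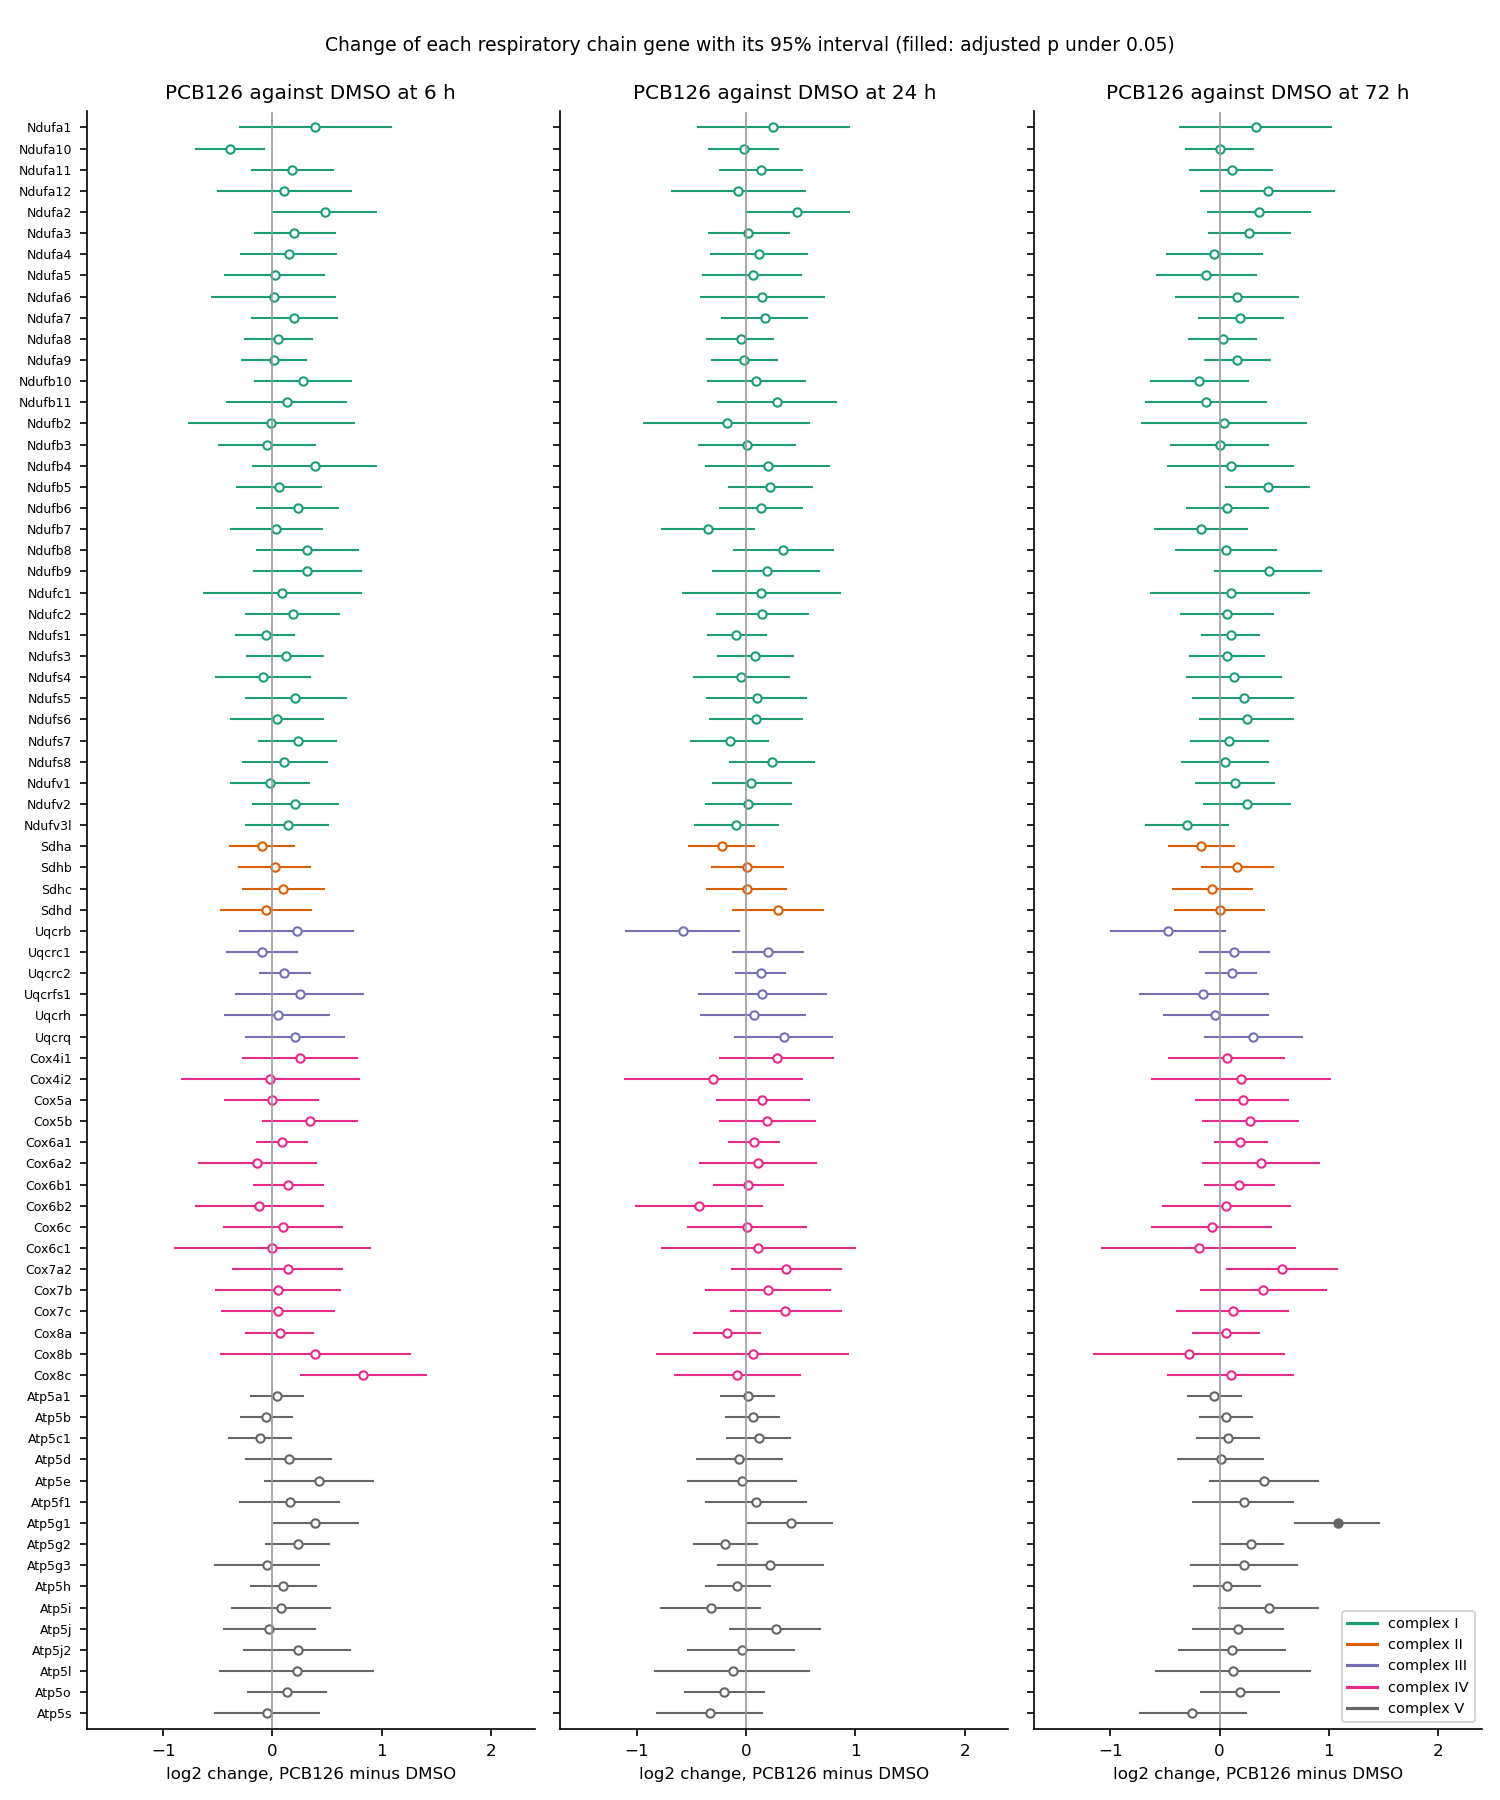
Log2 difference, PCB126 minus DMSO, of each of the 76 genes at 6, 24 and 72 h, with its 95% interval from limma and coloured by complex; filled points have an adjusted p under 0.05. Atp5g1 at 72 h, at 1.08, is the filled point.

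The precision of these comparisons bounds what was missed. The 95% interval of the difference lay within 1 (log2) of 0 on both sides for 73 of 76 members at 6 h, 73 at 24 h and 69 at 72 h, so for most of them a doubling or a halving lies outside the interval. It lay within 0.5 for 26, 23 and 27 members at these times, so smaller differences remain possible for the rest.

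By counts over all arrays, more members lay above their DMSO level than below it at each time, a majority that held at 6 h whichever array was left out and did not at 24 h. At 6 h 57 of 76 (75%) had a difference above 0, against 48.8% of all genes, and the median difference was 0.11, against -0.01 over all genes. At 24 h it was 51 of 76 (67.1%, against 46.5% of all genes) with a median of 0.07, against -0.02. At 72 h it was 59 of 76 (77.6%, against 50.3%) with a median of 0.10, against 0.00 over all genes. These counts describe genes measured on the same arrays and are not independent of each other. Without DMSO replicate 2 the 24 h count was 25 of 76, and without PCB126 replicate 1 the 72 h count was 39 of 76, while at 6 h it stayed between 51 and 62 whichever array was left out. At 6 h the groups did not overlap in 15 members on the higher side, against 7.05% of all genes, and in 1 on the lower side, against 9.87%. The 15 were Ndufa1, Ndufa2, Ndufa3, Ndufb4, Ndufb6, Ndufb8, Ndufb9, Ndufs5, Ndufv2, Cox5b, Cox6a1, Cox8c, Atp5e, Atp5g1 and Atp5i, with differences between 0.08 and 0.83, and 9 of them belong to complex I.

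At the later times fewer members were apart. At 24 h there were 3 on the higher side (Atp5g1, Atp5g3 and Atp5j), against 9.11% of all genes, and 0 on the lower side, against 12.7%. At 72 h there were 6 on the higher side (Ndufb5, Cox7a2, Atp5e, Atp5g1, Atp5g2 and Atp5i), against 9.52% of all genes, and 1 on the lower side (Sdha), against 10.7%. Atp5g1 was in the higher set at each of the 3 times.

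At 24 and 72 h the shift of the median rested on single arrays, and at 6 h it did not. Each member was centred on its mean over the 18 arrays, and the median over the 76 members was taken for each array. At 6 h it was -0.04, 0.05 and -0.05 with PCB126, against -0.13, -0.08 and -0.20 in DMSO. At 24 h it was 0.02, -0.11 and 0.18 with PCB126, against 0.02, -0.28 and 0.18 in DMSO. At 72 h it was 0.34, 0.05 and 0.07 with PCB126, against 0.04, -0.19 and 0.21 in DMSO. The treatments were apart at 6 h and overlapped at 24 and 72 h, where the repeats of 1 group were further from each other than the group medians were. PCB126 replicate 1 at 72 h was the highest array, with 68 of 76 members above their own mean, and DMSO replicate 2 at 24 h the lowest, with 10 of 76.

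Leaving out single arrays moved the median accordingly. At 6 h it stayed between 0.07 and 0.16. At 24 h it was -0.08 without DMSO replicate 2, 0.17 without DMSO replicate 3 and 0.01 without PCB126 replicate 3. At 72 h it was 0.00 without PCB126 replicate 1, 0.22 without DMSO replicate 3 and 0.03 without DMSO replicate 2. The median therefore had no stable sign at 24 h and was not stable in size at 72 h in these fits. Each fit left out 1 array and kept the same-numbered array of the other treatment. At 24 h the array medians of both treatments were lowest in replicate 2 and highest in replicate 3.

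The genes of cytosolic ribosomal proteins, chosen as a comparison after the values had been seen, had array medians within 0.09 of those of the respiratory chain genes on each of the 18 arrays. Their array medians (67 genes) at 72 h were 0.25, -0.04 and 0.07 with PCB126, against 0.09, -0.19 and 0.19 in DMSO. At 24 h they were 0.00, -0.09 and 0.17 with PCB126, against -0.07, -0.27 and 0.15 in DMSO. At 6 h they were -0.03, 0.07 and 0.02 with PCB126, against -0.07, -0.01 and -0.16 in DMSO. A majority above 0 was seen in these genes too: 57 of 67 at 6 h, 48 at 24 h and 54 at 72 h. The array medians over all genes lay between -0.09 and 0.06. The median difference of the ribosomal genes was 0.10 at 6 h, 0.07 at 24 h and 0.09 at 72 h, next to 0.11, 0.07 and 0.10 for the respiratory chain genes. Between 72 and 6 h the ribosomal median was 0.07 in PCB126 (1 gene called lower) and 0.12 in DMSO, next to 0.19 and 0.13 for the respiratory chain genes. What sets the shared level of both gene groups on an array was not tested.

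**Figure D4:**
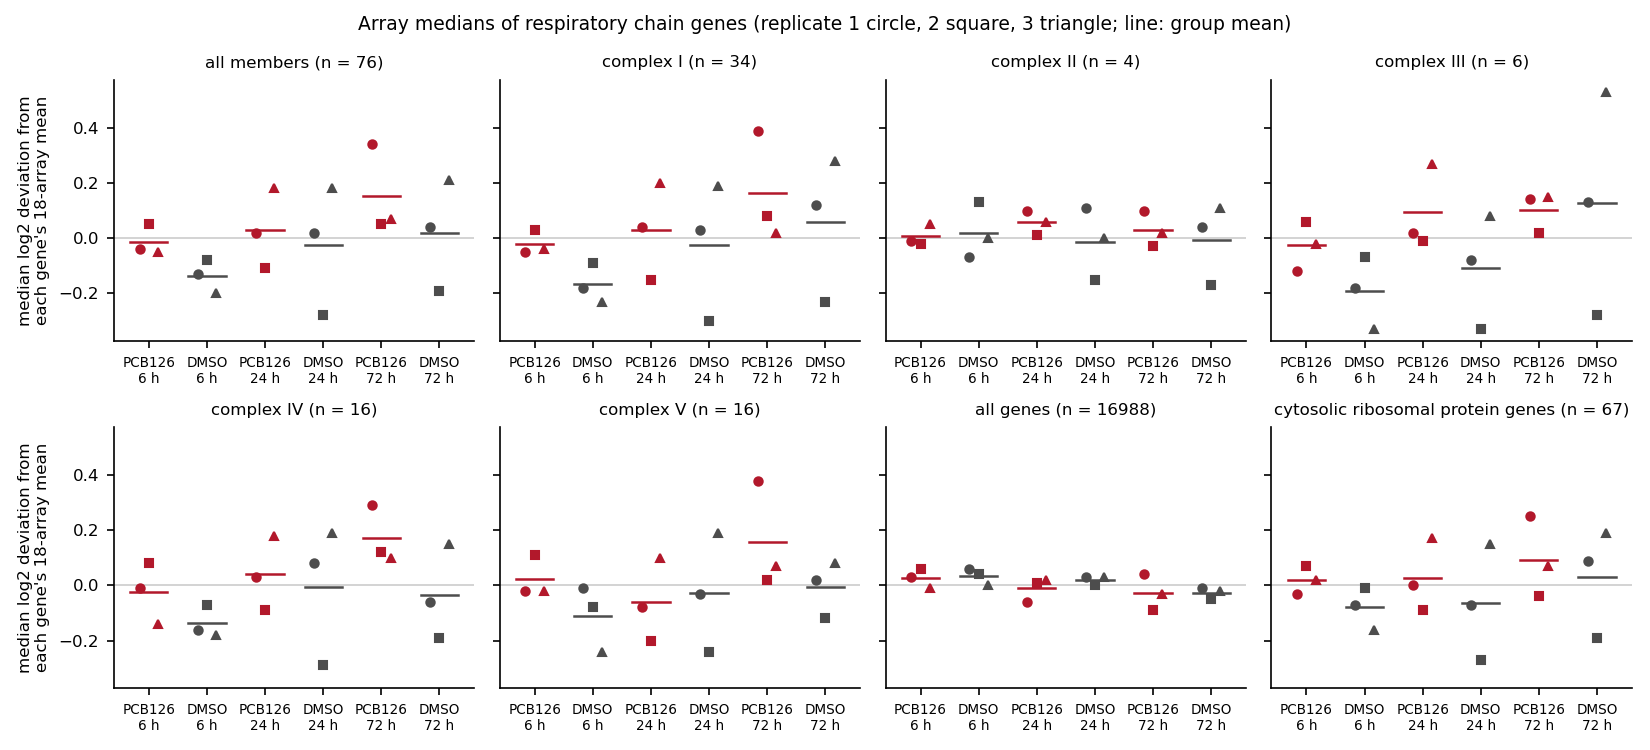
Median per array of the centred log2 values, for the 76 respiratory chain genes, the 67 cytosolic ribosomal protein genes and all genes, with PCB126 left of DMSO at 6, 24 and 72 h. The respiratory chain medians lie between -0.28 and 0.34, with the ribosomal medians within 0.09 of them on each array, while all genes stay between -0.09 and 0.06.

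Between 72 and 6 h, 0 of 76 members changed in the DMSO cultures, against 4.14% of all genes, and 1 member, Atp5g1, in the PCB126 cultures, against 5.66% in either direction and 1.49% on the higher side. More members lay above than below their 6 h level, 58 of 76 in DMSO, against 43.1% of all genes, and 59 of 76 in PCB126, against 43.5%. The median difference of the members was 0.13 in DMSO and 0.19 in PCB126, against -0.05 over all genes in both. Without DMSO replicate 3 of 72 h the DMSO median was 0.03 (45 of 76 above 0) and without replicate 2 of 72 h it was 0.27, and without PCB126 replicate 1 of 72 h the PCB126 median was 0.07 (48 of 76). In DMSO the groups were apart in 10 members that were higher at 72 h, against 7.43% of all genes, and in 1 that was lower (Atp5c1), against 18.6%. In PCB126 they were apart in 20 that were higher at 72 h, against 7.03% of all genes, and in 0 that were lower, against 13.7%. Next to Atp5g1 in the PCB126 cultures were Ndufb5, at 11.05 at 72 h and 10.52 at 6 h, a difference of 0.53 (limma adjusted p = 0.104), and Uqcrq, at 10.03 at 72 h and 9.48 at 6 h, a difference of 0.55 (adjusted p = 0.151). In DMSO the accessory subunit Ndufb4 was at 6.98 at 72 h and 6.33 at 6 h, a difference of 0.65 (adjusted p = 0.198). Centring the arrays on the median of the genes moved the median difference of all genes over time in PCB126 to 0.09, against -0.05 as deposited, and then 6 members were called higher (Atp5g1, Cox5a, Cox6a1, Ndufa7, Ndufb5 and Uqcrq). The share of all genes called with centring is not given here, so the 6 are not read as a result about the members.

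The other genes of the pathway came from lists of mitochondrial genes, and their counts stand next to 0.494%, 4.84% and 7.44% of all genes called at 6, 24 and 72 h. Of 9 measured further components of the chain (15 listed), 0 were called against DMSO at any time. Their median differences were 0.08, 0.13 and 0.45 at 6, 24 and 72 h. PCB126 replicate 1 of 72 h was the highest of its group in Ndufab1, Cycs, Atpif1, Usmg5, Atp5sl and Higd1a, and not in Cyc1, Cox7a2l and Higd2a. How far the 0.45 rests on that array was not tested. Among these components the electron carrier Cycs (cytochrome c) was at 9.23 ± 0.50 with PCB126 at 72 h and 8.66 ± 0.31 in DMSO, a difference of 0.57 (SD, n = 3 arrays each, limma adjusted p = 0.195). The Cycs groups overlapped. Higd1a, also not called, had 8.67, 7.94 and 8.22 with PCB126 at 72 h, against 7.76, 7.20 and 7.86 in DMSO. Ndufab1, the acyl carrier protein of complex I, was at 10.05 ± 0.34 with PCB126 at 72 h and 9.43 ± 0.29 in DMSO, a difference of 0.62 (adjusted p = 0.0653), and passed the test between 72 and 6 h of PCB126 (0.79, adjusted p = 0.0223). That call of Ndufab1 was lost without replicate 1 or 2 of either time (adjusted p 0.0562 to 0.102), and with the mean over probe sets its differences were 0.27 against DMSO at 72 h (limma adjusted p = 0.183) and 0.46 over time (adjusted p = 0.0163). Of 38 measured assembly factors (51 listed) 0 were called at any time, with medians of 0.05, 0.02 and 0.04 at 6, 24 and 72 h. Of 22 genes of mitochondrial import and the mitochondrial ribosome (24 listed) 0 were called, with medians of 0.10, 0.13 and 0.18.

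Of 22 genes of mitochondrial biogenesis and mtDNA expression, 0 were called at 6 h, 1 was lower at 24 h (4.55%, against 4.84% of all genes), and 1 was higher and 2 were lower at 72 h (13.6%, against 7.44%). Ppargc1b, a coactivator of respiratory genes, had 6.51, 6.75 and 6.53 with PCB126 at 24 h, against 7.17, 7.12 and 6.90 in DMSO, and fell by 0.47 on the log2 scale (limma adjusted p = 0.017). At 72 h Ppargc1b had 6.59, 6.53 and 6.58 with PCB126, against 6.98, 7.04 and 6.91 in DMSO, and fell by 0.41 (adjusted p = 0.0287). Its groups were apart at both times. Polg, the catalytic subunit of the mitochondrial DNA polymerase, had 8.91, 8.87 and 9.23 with PCB126 at 72 h, against 9.72, 9.86 and 9.57 in DMSO, and fell by 0.71 (adjusted p = 0.0121). The Polg groups were apart. Tfb1m, which methylates mitochondrial ribosomal RNA, was at 8.46 ± 0.26 with PCB126 at 72 h and 7.97 ± 0.07 in DMSO, and rose by 0.49 (SD, n = 3 arrays each, adjusted p = 0.0226). With the mean over its probe sets the difference of Tfb1m was 0.28 and not called. The activators Ppargc1a, Nrf1 and Tfam differed by 0.18, 0.30 and 0.11 at 72 h and were not called. Ppargc1a lay between 2.83 and 3.71 on the 18 arrays, below the median probe set level of 4.03, so its missing call says little.

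Of 22 measured genes of the citric acid cycle and pyruvate dehydrogenase (25 listed), 0 were called at 6 h, 2 were lower at 24 h (9.09%, against 4.84% of all genes), and 1 was higher and 3 were lower at 72 h (18.2%, against 7.44%). With so few genes per list, 1 call moves a share by several percent. Pdk2, a kinase that inactivates pyruvate dehydrogenase, had 8.51, 8.48 and 8.53 with PCB126 at 24 h, against 9.12, 8.92 and 9.01 in DMSO. At 72 h Pdk2 had 8.41, 8.38 and 8.44 with PCB126, against 8.90, 9.10 and 9.12 in DMSO. The PCB126 arrays were below the DMSO arrays at both times, and Pdk2 fell by 0.51 at 24 h (limma adjusted p = 0.00899) and by 0.63 at 72 h (adjusted p = 0.00101). Its relative Pdk4 fell by 0.78 at 24 h (adjusted p = 0.0224) and by 0.64 at 72 h (adjusted p = 0.0469). Pdk4 was of low level, with 4.91, 4.79 and 4.98 with PCB126 at 72 h, against 5.78, 5.42 and 5.42 in DMSO. These PCB126 values were less than 1 above the median probe set level of 4.03. The further relatives Pdk1 and Pdk3 were not called, and Pdk1 went the other way. At 24 h Pdk1 had 9.17, 9.17 and 9.20 with PCB126, against 8.74, 8.75 and 8.91 in DMSO. The 72 h means with PCB126 and in DMSO were 9.26 and 8.98 for Pdk1 and 8.39 and 8.42 for Pdk3. Suclg2, the GTP-forming subunit of succinyl-CoA ligase, was at 10.14 ± 0.13 with PCB126 at 72 h and 10.68 ± 0.08 in DMSO, and fell by 0.54 (SD, n = 3 arrays each, adjusted p = 0.0191). Fumarase, listed as Fh1, was at 9.02 ± 0.14 with PCB126 at 72 h and 8.45 ± 0.16 in DMSO, and rose by 0.57 (adjusted p = 0.0244).

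Of 21 genes of mitochondrial carriers, uncoupling and peroxide handling, 0 were called at 6 h, 1 was lower at 24 h (4.76%, against 4.84% of all genes) and 0 were called at 72 h, against 7.44%. The gene was Sod2, the manganese superoxide dismutase of the matrix, which had 8.98, 9.34 and 9.86 with PCB126 at 24 h, against 10.37, 10.10 and 10.45 in DMSO. All PCB126 arrays were below all DMSO arrays, and Sod2 fell by 0.91 (limma adjusted p = 0.0273). At 72 h the difference was -0.66 (adjusted p = 0.104).

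These calls differed in how they stood up to other settings. Over 14 alternatives each, Pdk2 stayed called in 12 at 24 h and 13 at 72 h, and Polg in 12 at 72 h. Pdk4 stayed called in 9 at 24 h and 5 at 72 h, Ppargc1b in 9 and 7, Sod2 in 9 at 24 h, and Suclg2, Fh1 and Tfb1m in 9, 9 and 8 at 72 h. In the fit with the compared groups alone none of these calls held. Without 1 array, the 24 h call of Pdk2 was lost for DMSO replicate 1 (adjusted p = 0.0599) and that of Polg at 72 h for DMSO replicate 2 (adjusted p = 0.0588). At 24 h the call of Pdk4 was lost without PCB126 replicate 1 or any DMSO replicate (adjusted p 0.0536 to 0.111), and that of Ppargc1b without PCB126 replicate 1 or 3 or DMSO replicate 1 or 2 (0.0636 to 0.0963). The 24 h call of Sod2 was lost without PCB126 replicate 1 or 2 or DMSO replicate 1 or 3 (0.0868 to 0.146). At 72 h the call of Pdk4 was lost whichever of the 6 arrays was left out (0.0718 to 0.188), and that of Ppargc1b for each array except DMSO replicate 3 (0.0517 to 0.102). The calls of Tfb1m (0.0655 to 0.0922) and Fh1 (0.0505 to 0.113) were lost without PCB126 replicate 1 or 3 or DMSO replicate 1 or 2. That of Suclg2 was lost without PCB126 replicate 2 or 3 or DMSO replicate 1 or 3 (0.0538 to 0.0784). For comparison, Atp5g1 at 72 h stayed called in 13 of 14.

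**Figure D5:**
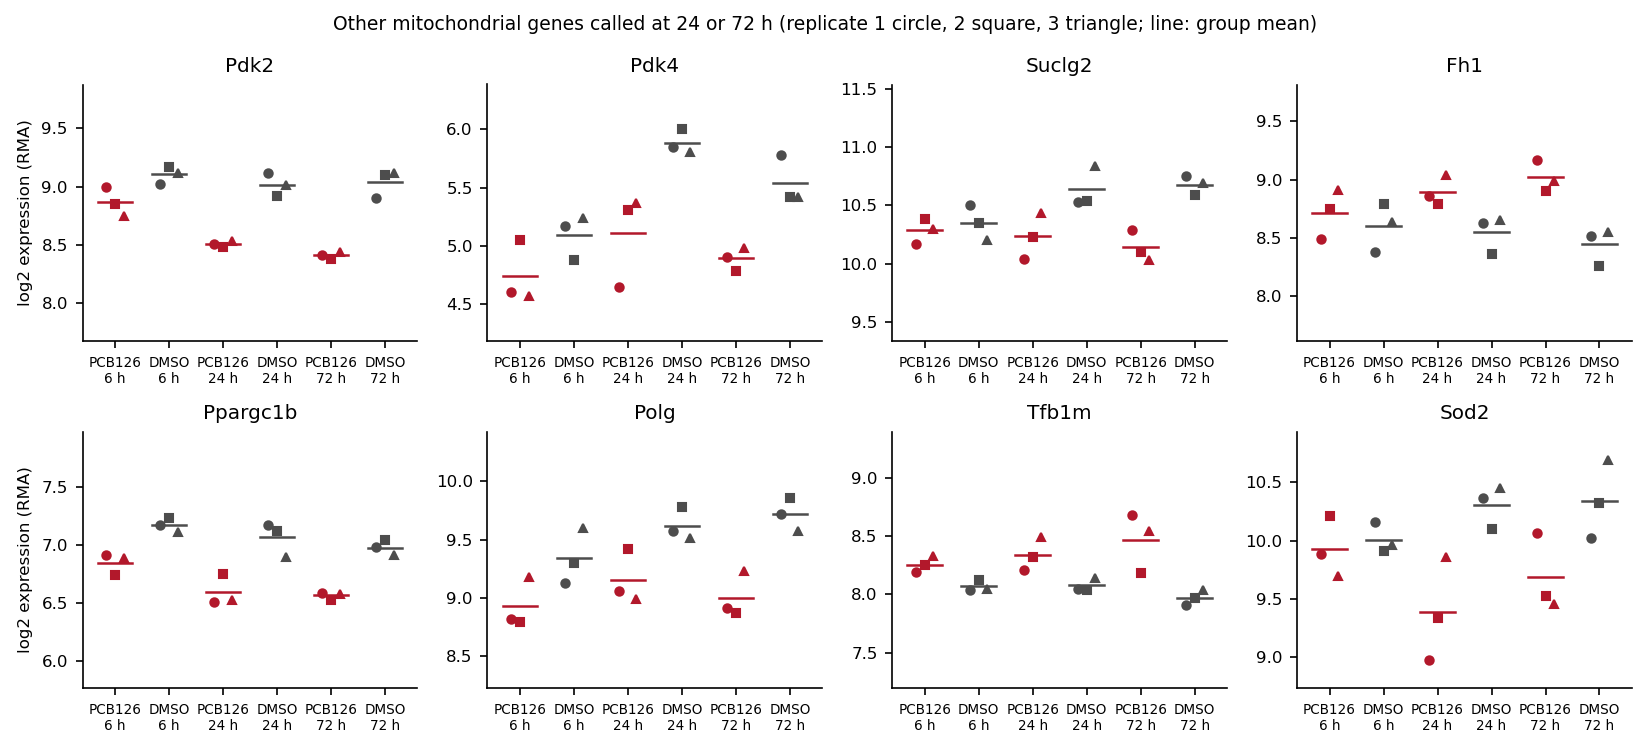
Log2 expression of mitochondrial genes outside the complexes that were called at 24 or 72 h, with 1 point per array, PCB126 left of DMSO at each time, and bars for the group means. The Pdk2 arrays with PCB126 at 72 h lie between 8.38 and 8.44, below the DMSO arrays at 8.90 to 9.12.

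Across the members' promoters, of which RefSeq held 68 of 76 among 27457 in all, motif matches on either strand were counted as a description. The 27457 promoters, 1 per gene symbol, are not limited to the 16988 genes measured here. The members were not set against genes of like kind or level. GCGTG was found in 47.1% of the members' promoters and in 31.1% of all promoters. CCGGAAG, letters bound by ETS factors such as GABP, was found in 27.9% of the members' promoters and in 9.22% of all. AAGATGGC, bound by YY1, was found in 22.1% and 3.44%, and the NRF1 palindrome in 5.88% and 0.932%. CCAAT was found in 33.8% and 37.7%, and CACGTG in 8.82% and 6.65%; these last motifs were searched after the promoters of the c-subunit genes had been read. A match is not a site of binding, and the only called member, Atp5g1, held in its window 0 matches to the receptor core and to the ETS, YY1 and NRF1 letters.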

How the data were processed

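RNA of WB-F344 cells was hybridised to Affymetrix rat exon arrays, 3 per group. The authors deposited log2 values; RMA and Affymetrix Power Tools 1.12.0 are named for them, as per the submitters' processing notes. In RMA, background correction, quantile normalisation and summarisation of probes can compress changes at both ends of the scale. For the array, a build is not given in the sources here. Of 1044112 probe sets, 223110 had 1 gene symbol, 3523 several and 817479 none. Gene values are medians over probe sets with 1 symbol; 25 probe sets of 3 members with several symbols were left out.

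The package limma (version 3.58.1) for R 4.3.3 fitted 1 mean per group to 18 arrays, with 12 residual and 3.89 prior degrees of freedom; tests were two-sided, adjusted by Benjamini-Hochberg over 16988 genes. The fit was tested on simulated data. The number of arrays limits the precision. Figures were drawn with matplotlib 3.10.9.

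Named were called members, the largest rise and fall per complex and time, tissue forms, c-subunit genes and called members of other lists; further members outside this rule were named after their values were seen. Members and lists were chosen with earlier results of these data known.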

Additional observations from a re-analysis of the deposited data

How the results depend on the processing

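Results were recomputed with a replicate block, with means over probe sets, with probe sets or genes above 4.03 alone, with centring on the gene median, quantile normalisation or an intensity trend, with the compared groups alone and without each array. Of the alternative counts and medians of the members, 149 stayed within a tolerance (a count within 1.5 times, a median within 0.157, the SD of array medians between replicates), 4 counts were higher and 7 lower. The tolerance is wider than most of the medians, and within it lie the 24 h median of -0.08 without DMSO replicate 2 and the 72 h median of 0.00 without PCB126 replicate 1. The 149 also include counts of 0 that stayed at 0, so their number is no measure of how firm the results are. Alternatives for the medians over time and for genes beyond the naming rule were added after seeing the data. Members called for PCB126 at 72 h against DMSO numbered 1, but 0 with the compared groups alone (416 of all genes called in place of 1264), and 1 to 1 when 1 array was left out. Members called for PCB126 between 72 and 6 h numbered 1, but 3 with the mean over probe sets (Atp5g1, Cox5a and Ndufb5), 2 with bright probe sets (Atp5g1 and Uqcrq), 2 with an intensity trend (Atp5g1 and Cox6a1), 6 with centring, 0 with the compared groups alone (188 of all genes in place of 962), and 0 to 1 when 1 array was left out. The compared groups alone have fewer residual degrees of freedom; the cause of the other differences was not tested. With 84, 823 and 703 called genes at 6 h, at 24 h and in DMSO over time, the compared groups alone gave 11, 453 and 73, and the mean over probe sets 178, 1256 and 1346, all with 0 members called. In PCB126 over time the mean over probe sets gave 1601 genes. For bright probe sets, the intensity trend and centring, the count over all genes is not given here, so those member counts stand without a share.

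With the replicate number as a block, Atp5g1 at 72 h was at 1.08 (limma adjusted p = 0.000822), and the counts of members called stayed as reported. The labels do not say that the numbers pair samples. Correlations of deviations between same-numbered arrays of PCB126 and DMSO were low, between 0.00405 and 0.17, with 2 of 9 over 0.1. For 6 of 9 PCB126 arrays the same-numbered DMSO array was nevertheless the best match among the DMSO arrays of that time. Whether same-numbered arrays share a batch was not tested. Of the 2 called differences of members, both of Atp5g1, and the 23 of other genes, 0 changed sign in any alternative. These differences were picked because they were called, and the alternatives reuse the same arrays, so the kept sign adds no support to the calls. Of the 228 differences of members that were not called, 125 changed sign in at least 1 alternative, and of 38 of other genes 13 did. Values near 4.03, such as Cox8c, are limited by signal over background.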
